A study of Mus musculus with 130 samples.

Results

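The genes described here are 94 pseudogenes and 48 protein-coding genes whose levels in mouse liver fell into a low and a high set among 20 AXB/BXA strains, with an empty interval between the sets. They were chosen by these levels from a table of 35711 genes. The 20 levels of a gene were put in order on the log2(TPM + 1) scale, where TPM is transcript abundance per 1000000 transcripts, and a gene was taken when 2 neighbouring strains lay at least 1 apart with at least 5 strains on each side. This gap rule was met by 228 genes. Of these, 84 also split among the BXD strains (the same gap with at least 14 strains on each side) and were left out, as were Asic5 and Bglap3, which the rule leaves out by name. The sizes of the gaps chose the genes and are given as a description, with no test. The other measurements below, in the parent strains, in the other strain families and in a diet study, took no part in the choice, apart from that exclusion.

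AXB and BXA strains are recombinant inbred lines from a cross of A/J and C57BL/6J mice. Each line was inbred until nearly every locus carried 2 copies of 1 parent's allele, so a variant between the parents falls at random to some lines and not to others. A transcript that depends mainly on such a variant is high in the lines with 1 parent's allele and low in the rest. BXD lines come from C57BL/6J and DBA/2J, and show the same for variants between those strains.

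Liver RNA of male mice was sequenced in 2 sets, a strain panel and a diet study. Panel mice ate chow for 4 weeks and then a diet with 2% carbonyl iron (20000 ppm) for 6 weeks. The groups used from the panel were 10 AXB and 10 BXA strains, A/J, C57BL/6J, 56 BXD strains including 1 labelled BXD65/RwwJ, 4 BXH and 3 CXB strains, and 30 libraries of other inbred strains, each strain with 1 mouse except 129X1/SvJ with 2. AXB19/PgnJ, AXB19a/PgnJ and AXB19b/PgnJ are related substrains. In the diet study, 3 C57BL/6J mice per group received the 2% iron diet, the 2% iron diet with cellulose as fiber, 500 ppm iron, 50 ppm iron or chow. The labels give no iron content for chow, so iron and the rest of the diet cannot be told apart in a comparison with chow. A strain's value is that of 1 mouse, so a difference between single strains has no replicate check. The labels give no batch, and the piece of tissue came from the large lobe of the liver.

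Libraries of the 20 AXB/BXA strains held 10.4 to 14.9 M counts (median 12.4), where M stands for 1000000. A/J had 12.7 M counts and C57BL/6J 11.4 M. The summed level of 4 hepatocyte markers, albumin among them, was 47913 to 75521 TPM in the AXB/BXA strains. The library labelled BXD65/RwwJ was low in Y-linked transcripts against its male label. Without it the rule gave 144 genes.

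Of the 94 pseudogenes, 76 are processed pseudogenes, which are copies of a spliced messenger RNA written back into the genome. Pseudogenes made up 66.2% of the set, against 6.40% of the 12563 genes with at least 1 TPM in at least 5 AXB/BXA strains. The median gap was 1.31 and the largest 5.79. The Rpl35a-related pseudogenes Rpl35a-ps2, Rpl35a-ps3, Rpl35a-ps4, Rpl35a-ps6 and Gm10243 had identical values in every panel library and identical transcripts of 333 bases, so the members are 138 distinct measurements. None of 31 measured genes of iron handling was among them, and the largest gap on that list was 0.44, in Lcn2. No Y-linked or mitochondrial gene was a member. Among gene families, 7 of 23 major urinary protein (Mup) genes and 4 of 14 sulfotransferase (Sult) genes belonged to the set. So did 5 of 26 H2- genes of the major histocompatibility complex, 8 of 70 Rpl and 5 of 58 Rps genes. Also in it were 3 of 71 Cyp, 1 of 18 Ugt and 1 of 27 Ifi genes. None of 21 Gst, 29 Serpin, 11 Gbp, 35 Trim, 280 Zfp, 228 Slc or 40 Olfr genes belonged to it. The Rpl count takes the identical Rpl35a-ps copies separately. Differences between families were not tested.

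Just inside the threshold were A2ml1 (gap 1.002), Gm2423 (1.003) and Gm12318 (1.007). Just outside lay Rpl36-ps3 (0.998), Gm15421 (0.997) and Olfr1034 (0.995).

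The largest gap belonged to Rps3a3, a processed pseudogene of the ribosomal protein gene Rps3a1, at chr13:108670603-108671397 on the plus strand of GRCm38. It was from 0 to 0.802 TPM (median 0.309) in 13 strains and from 98.9 to 138 TPM (median 121) in BXA1/PgnJ, BXA12/PgnJ, BXA13/PgnJ, BXA16/PgnJ, AXB4/PgnJ, AXB13/PgnJ and AXB15/PgnJ. No low strain had more than 5.22 counts and no high strain fewer than 633. The A/J mouse had 125 TPM and the C57BL/6J mouse 0.554 TPM, and the 56 BXD strains ran from 0 to 1.23 TPM. The A/J value thus lay among the high strains and the C57BL/6J value among the low ones.

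Rps3a3 and 2 other processed pseudogenes are shown with their source genes, with which they are nearly letter for letter the same. Closeness alone does not set them apart. Gm4366, for example, was 99.6% identical to Eef1g, beside 98.9% for Rps3a3 and Rps3a1. The 3 sources shown are those whose levels separated without overlap, as described below. The stretches are coding positions 361 to 660 of Rps3a1, 1 to 300 of Rpl35a and 180 bases ending at 696 of Acsf2, counted from 1 at the first base of the source's start codon, in the annotated transcripts. Capitals mark the bases in which the pseudogene differs from its source.
Rps3a3: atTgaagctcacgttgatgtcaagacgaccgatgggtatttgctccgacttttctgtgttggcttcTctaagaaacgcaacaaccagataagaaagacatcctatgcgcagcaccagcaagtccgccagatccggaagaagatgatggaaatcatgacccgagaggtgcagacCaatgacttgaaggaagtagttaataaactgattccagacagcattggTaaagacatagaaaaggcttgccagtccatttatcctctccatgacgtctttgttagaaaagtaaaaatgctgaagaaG
Rps3a1: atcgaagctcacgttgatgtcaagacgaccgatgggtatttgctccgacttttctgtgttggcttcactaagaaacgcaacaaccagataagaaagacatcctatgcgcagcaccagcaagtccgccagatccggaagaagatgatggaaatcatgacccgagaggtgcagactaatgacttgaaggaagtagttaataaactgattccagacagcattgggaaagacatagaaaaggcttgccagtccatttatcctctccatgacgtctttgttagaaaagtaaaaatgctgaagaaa
Rpl35a-ps2: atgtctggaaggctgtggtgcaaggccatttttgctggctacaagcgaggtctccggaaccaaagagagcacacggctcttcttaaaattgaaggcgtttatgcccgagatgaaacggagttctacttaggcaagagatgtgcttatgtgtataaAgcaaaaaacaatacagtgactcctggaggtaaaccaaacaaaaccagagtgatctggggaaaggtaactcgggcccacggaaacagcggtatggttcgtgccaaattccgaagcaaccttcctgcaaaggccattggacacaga
Rpl35a: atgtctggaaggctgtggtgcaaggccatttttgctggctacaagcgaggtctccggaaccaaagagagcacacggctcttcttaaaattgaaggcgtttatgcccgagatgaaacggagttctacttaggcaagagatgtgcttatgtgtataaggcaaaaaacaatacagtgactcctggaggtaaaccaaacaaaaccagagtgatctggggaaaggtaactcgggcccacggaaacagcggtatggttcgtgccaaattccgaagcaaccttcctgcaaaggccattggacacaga
Gm5540: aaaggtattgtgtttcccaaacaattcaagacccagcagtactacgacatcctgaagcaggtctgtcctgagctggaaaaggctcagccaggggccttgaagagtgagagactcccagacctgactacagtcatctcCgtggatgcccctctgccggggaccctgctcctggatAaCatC
Acsf2: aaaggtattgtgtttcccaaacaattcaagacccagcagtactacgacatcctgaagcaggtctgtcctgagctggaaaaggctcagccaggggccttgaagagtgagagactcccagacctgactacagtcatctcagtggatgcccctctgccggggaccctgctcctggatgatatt
Over the whole coding length, Rps3a3 differed from Rps3a1 at 9 of 792 bases, with C363T, A427T, T534C, G582T and A660G inside the printed stretch. Rpl35a-ps2 differed from Rpl35a by G156A alone in 330 bases. Gm5540 differed from Acsf2, which encodes an acyl-CoA synthetase family member, at 18 of 1845 bases.

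These 3 source genes were low in the strains in which their pseudogenes were high. Rps3a1 was 84.8 to 122 TPM in the 7 strains with high Rps3a3 and 203 to 345.3 TPM in the other 13, without overlap. The sum of both was 184 to 261 TPM in the first strains and 203 to 346 TPM in the others, and these ranges overlapped. A/J had 126 TPM of Rps3a1 and C57BL/6J 238 TPM.

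Rpl35a-ps2 was from 0 to 4.18 TPM (median 0) in 14 strains and from 34.8 to 54.5 TPM (median 41.9) in 6. Rpl35a was 118 to 168 TPM in those 6 strains and 238 to 403 TPM in the 14. Again no strain of 1 side reached the other, and A/J (36.5 TPM of the pseudogene) stood with the high side while C57BL/6J had 5.42 TPM. Rpl35a and Rpl35a-ps2 summed to 157 to 222 TPM in the 6 strains and 238 to 403 TPM in the 14, without overlap. Of the identical copies, this sum holds only Rpl35a-ps2.

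Gm5540 was from 0 to 0.272 TPM (median 0) in 13 strains and from 3.36 to 7.38 TPM (median 6.31) in 7, with 5.40 TPM in A/J and 0 in C57BL/6J. Acsf2 was 21.2 to 33.8 TPM in those 7 strains and 46.02 to 103.7 TPM in the 13. Acsf2 and Gm5540 summed to 24.7 to 40.5 TPM in the 7 strains and 46.1 to 103.9 TPM in the 13, without overlap. Most sources did not separate as these 3 source genes did. The 20 pseudogenes for which all BXD strains stood on the C57BL/6J side have 15 distinct sources, and these 3 were the ones whose ranges did not overlap. Of the other 12, 9 had a lower median and 3 (Lasp1, Hnrnpl and Mrpl10) a higher one in the strains with the high pseudogene. Mrpl27, the mitochondrial ribosomal protein gene behind Gm6304, was 24.1 to 47.2 TPM in strains high for the pseudogene and 38.9 to 62.5 TPM in the rest, and the ranges overlapped. Reads of near-identical copies can be assigned to either copy, so the levels of these pseudogenes and their sources are uncertain as measures of each locus. The part of read assignment in the gaps was not tested.

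**Figure D1:**
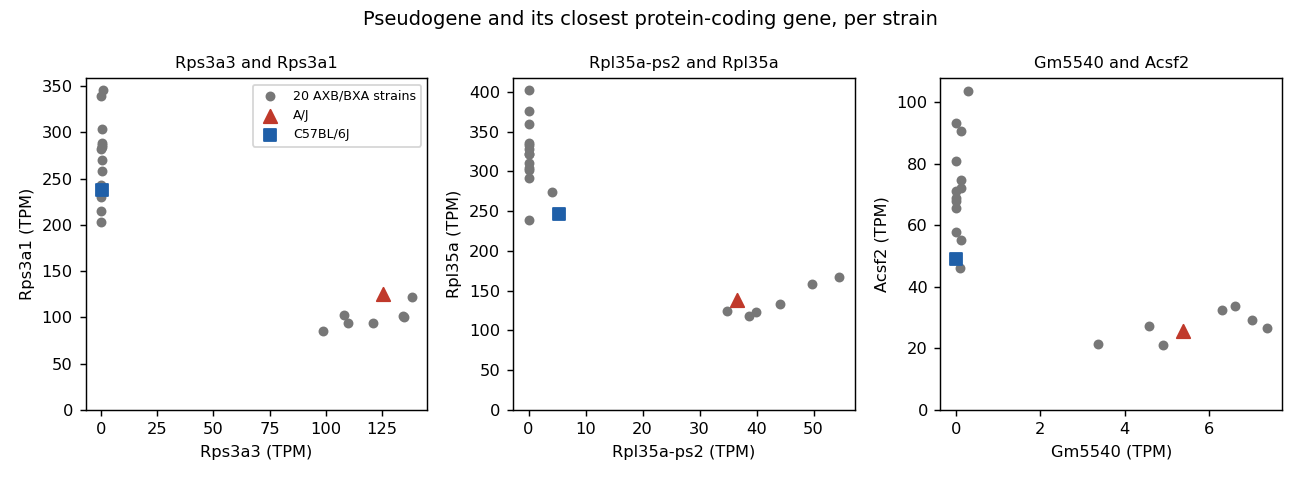
Levels of pseudogenes and of their source genes in the AXB/BXA strains, in TPM, with 1 point per strain and the A/J and C57BL/6J mice marked. Strains with high Rps3a3, Rpl35a-ps2 or Gm5540 had lower Rps3a1 (84.8 to 122 TPM), Rpl35a (118 to 168 TPM) or Acsf2 (21.2 to 33.8 TPM) than every strain with the low pseudogene level.

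A protein-coding match of the transcript was found for 89 of the 94 pseudogenes, with a median identity of 98.6% (84.5% to 100%), and 22 of these sources encode ribosomal proteins. Of the other pseudogenes at 1 TPM or more in at least 5 strains, 594 of 710 had a match, with a median identity of 97.2%. The members' matches were therefore slightly closer in the median. Sources encoding ribosomal proteins were found for 101 of these 594, beside 22 of 89 for the members. The 22 count the identical Rpl35a-related copies separately. Neither difference was tested.

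The parents, which the rule did not use, fell on opposite sides of the gap for 83 of the members. A side was set by the middle of the gap. A/J was on the high side for 55 of them and C57BL/6J for 28. For 57 of the 83 both parents lay beyond the edges of the gap itself. These 83 held 33 protein-coding genes and 50 pseudogenes. A/J and C57BL/6J were at least 1 apart on the log2(TPM + 1) scale for 100 of the members (70.4%), against 11.2% of the 12563 expressed genes. The remaining 59 genes had both parents on 1 side, 40 with both low and 19 with both high, and 24 of them were at 0 TPM in both parents.

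**Figure D2:**
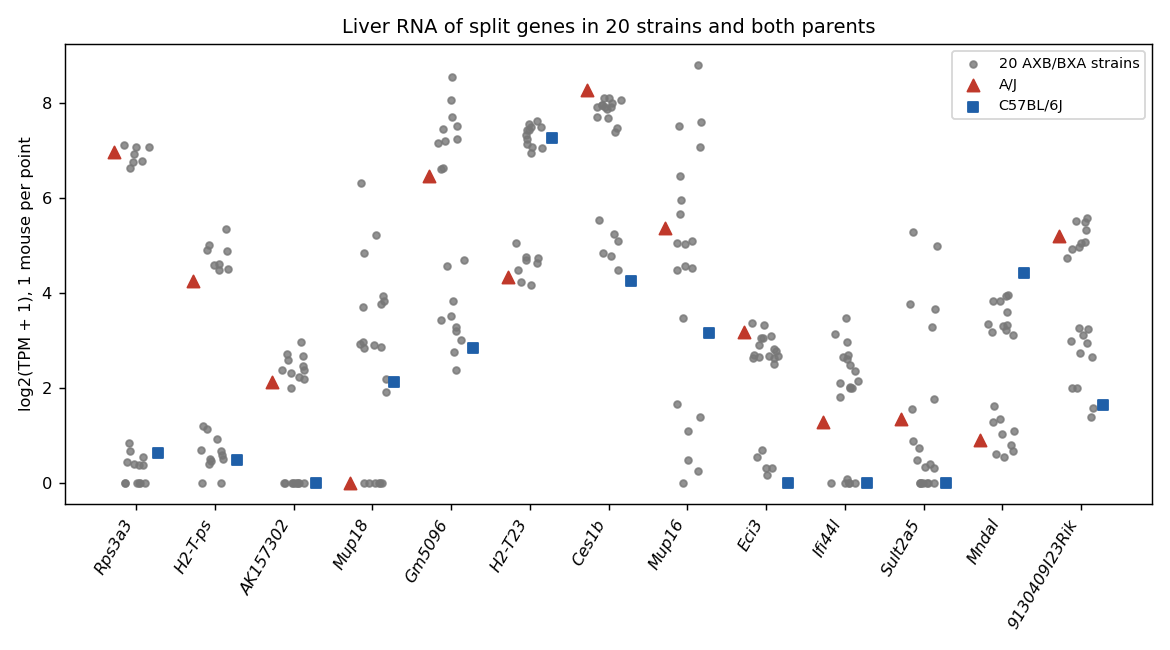
Levels of 13 members in the 20 AXB/BXA strains on the log2(TPM + 1) scale, 1 column per gene and 1 point per strain, with A/J and C57BL/6J marked. The empty interval in each column is the gap that chose the gene, the widest being that of Rps3a3 (5.79).

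For the 83 genes with opposite parents, between 5 and 15 of the 20 strains (median 9) stood on the A/J side. A single strain was on the A/J side for 30 to 51 of the 83 genes (median 39). The related substrains AXB19/PgnJ, AXB19a/PgnJ and AXB19b/PgnJ shared a side for 63 of the 83 genes (75.9%) and for 23 of the 59 genes with both parents on 1 side (38.98%). Each pair of these substrains had the same side for 68 to 73 of the 83 genes, above every one of the other 187 pairs of strains (23 to 61, median 45).

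Repeat mice of 1 strain gave a measure of how far such levels vary without a difference in genotype. The 3 C57BL/6J mice on the 2% iron diet spanned at least 1 on the log2(TPM + 1) scale for 20 of 80 genes with opposite parents (25%) and for 27 of 57 with parents on 1 side (47.4%), against 5.82% of all expressed genes. The 2 mice of 129X1/SvJ were at least 1 apart for 15 of 83 and for 23 of 59 genes, against 3.39%. Low depth was common too, since the median of the high strains was under 10 counts for 11 of the 83 and 30 of the 59 genes. Members thus varied between mice of 1 strain more often than other genes, and those with both parents on 1 side did so most often.

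**Figure D3:**
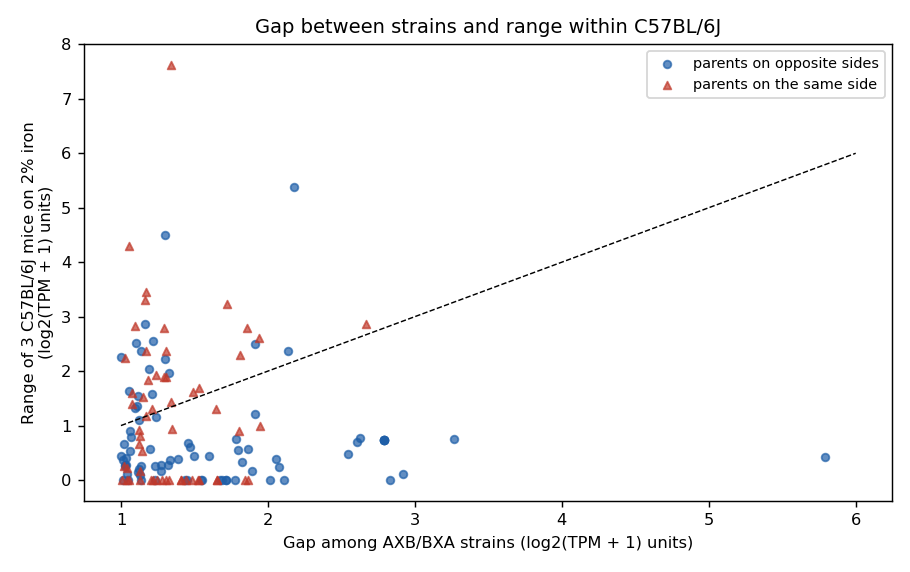
Gap among the AXB/BXA strains against the range of the 3 C57BL/6J mice on 2% iron, both on the log2(TPM + 1) scale, with 1 point per gene for 80 genes with opposite parents and 57 with parents on 1 side. The range reached 1 in 20 of the former and 27 of the latter.

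The H2-T region of chromosome 17 gave 6 neighbouring members. Class I molecules present peptides on the cell surface, and H2-T23 encodes Qa-1, a nonclassical member that is recognised by receptors of natural killer and T cells. H2-T23 and H2-T22 were low, and H2-T10, H2-T3, H2-T-ps and the pseudogene Gm8815 high, in the same 8 strains: BXA4/PgnJ, BXA8/PgnJ, BXA12/PgnJ, BXA26/PgnJ, AXB5/PgnJ, AXB8/PgnJ, AXB12/PgnJ and AXB15/PgnJ.

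H2-T23 (chr17:36029773-36032855) was from 16.99 to 32.4 TPM (median 24.4) in these 8 strains and from 123 to 195 TPM (median 166) in the other 12, with 19.4 TPM in A/J, 153 TPM in C57BL/6J and 75.1 to 259 TPM in the BXD strains. H2-T22 was from 10.4 to 21.9 TPM (median 12.2) against 48.6 to 81.8 TPM (median 65.04), with 10.1 TPM in A/J and 69.7 TPM in C57BL/6J. Both genes were therefore low where the A/J side was taken, with no strain in between.

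H2-T10 ran the other way, from 20.4 to 45.8 TPM (median 27.1) in the 8 strains and from 1.16 to 2.52 TPM (median 1.89) in the 12, with 23.6 TPM in A/J and 2.72 TPM in C57BL/6J. H2-T-ps, an H2-T pseudogene, was 21.4 to 40.1 TPM in the 8 strains and 0 to 1.32 TPM in the 12. H2-T3, which encodes the thymus leukemia antigen, was 1.88 to 4.29 TPM against 0 to 0.403 TPM. Gm8815 split into the same strains (3.54 to 12.03 TPM against 0 to 0.266 TPM), but A/J had only 0.888 TPM and was counted on the low side with C57BL/6J. Class I genes are close copies of each other and the reference genome is that of C57BL/6J, so the levels of single genes on the A/J side are uncertain.

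Rps18, a ribosomal protein gene within 5 Mb of these, was from 46.9 to 118 TPM (median 105) in the same 8 strains and from 310 to 492 TPM (median 434) in the 12. A/J had 133 TPM, C57BL/6J 389 TPM and DBA/2J 86.0 TPM. The C57BL/6J level was again the high one. The genes most like H2-T-ps across the 20 strains were H2-Q2 (Pearson's r 0.986), H2-T10 (0.986) and Gm8909 (0.984), each with all 20 strains on the same side, as a description over strains that share their side of 1 region.

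The 250 bases before the RefSeq starts of H2-T23 and H2-T22 are shown because these neighbours fell together on the A/J side. The sequences are those of RefSeq on GRCm38.p6, minus strand, chr17:36032702-36032951 and chr17:36042743-36042992, and capitals mark CCAAT and GAAANNGAA on either strand, which did not overlap.
H2-T23: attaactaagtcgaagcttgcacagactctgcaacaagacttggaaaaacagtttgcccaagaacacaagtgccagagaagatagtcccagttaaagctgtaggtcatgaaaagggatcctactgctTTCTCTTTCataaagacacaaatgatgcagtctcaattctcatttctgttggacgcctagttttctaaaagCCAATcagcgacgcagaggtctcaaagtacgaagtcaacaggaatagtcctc
H2-T22: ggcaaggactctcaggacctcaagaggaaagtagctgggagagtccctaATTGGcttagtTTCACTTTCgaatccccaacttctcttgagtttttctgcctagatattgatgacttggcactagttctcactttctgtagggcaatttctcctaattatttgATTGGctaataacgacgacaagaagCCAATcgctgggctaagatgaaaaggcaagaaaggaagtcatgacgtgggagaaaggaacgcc
Both windows hold both motifs. The gene positions given above are those of GENCODE, which places the start of H2-T23 at 36032855, inside its window. Both motifs of H2-T23 thus lie within the gene as GENCODE places it. The windows of H2-T22 and H2-T3 also overlap their GENCODE genes. Of 32851 promoters of this length, 33.8% hold CCAAT and 7.13% GAAANNGAA. TATAAA, which was searched as well and is in 12.4%, is in neither window. H2-T3, which was high on the A/J side, has none of the 3 in its window. A promoter was found in the table for 33 of the members.

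How far neighbouring members shared their strains depended on the region. In all pairs below, the identical Rpl35a-related copies were taken once. Among the 83 genes with opposite parents, the 29 pairs within 5 Mb had a median of 20 of 20 strains on the same side, and 17 of them had 19 or 20. The 15 pairs at 20 all come from the H2-T and Rps18 group. The other 14 near pairs had a median of 11 strains (3 to 19), and 2 of them reached 19. Among the 29 genes for which no BXD strain left the C57BL/6J side, the 3 near pairs shared 7 to 11 strains (median 10). The 37 pairs 5 to 20 Mb apart had a median of 11 strains, the 113 pairs over 20 Mb apart a median of 10, and the 2902 pairs on different chromosomes a median of 10. Outside the H2-T group, near pairs were thus close in the median to pairs on different chromosomes.

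**Figure D4:**
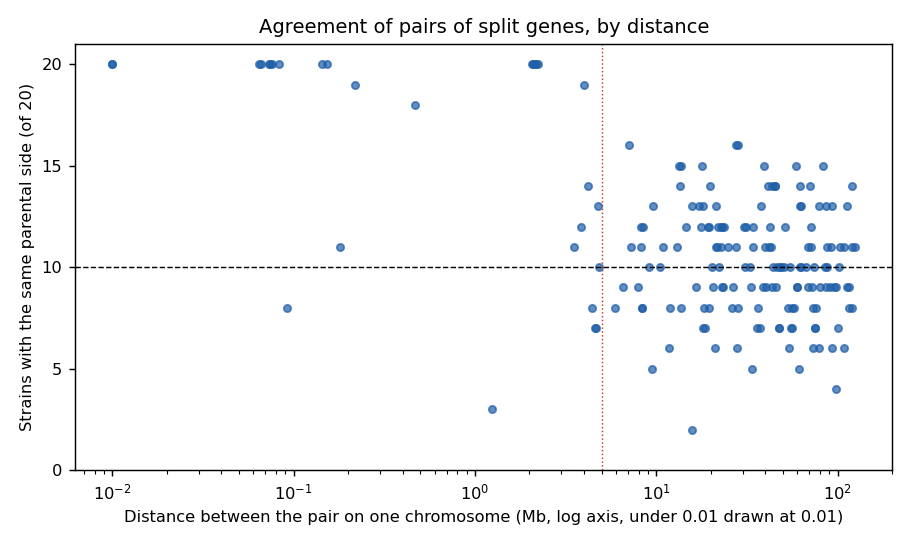
Number of the 20 strains on the same parent's side for each pair of genes with opposite parents on 1 chromosome (179 pairs), against their distance in Mb on a log axis. Identical copies were taken once. The 15 pairs at 20 strains, left of the dotted line at 5 Mb, are those of the H2-T and Rps18 group, pairs farther apart had medians of 11 and 10, and the dashed line marks 10 strains.

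On chromosomes apart, 5 of the 2902 pairs shared 19 or 20 strains. Gm5540 on chromosome 3 and Gm6304 on chromosome 18 shared all 20, and their source genes Acsf2 (chr11:94557102-94601871) and Mrpl27 (chr11:94653767-94660089) are neighbours on chromosome 11. Gm4875 on chromosome 6 and Gm9062 on chromosome X also shared all 20, with sources Lasp1 (chr11:97799000-97838764) and Mrpl10 (chr11:97041560-97049213). In both pairs the sources lay close together although the pseudogenes did not.

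**Figure D5:**
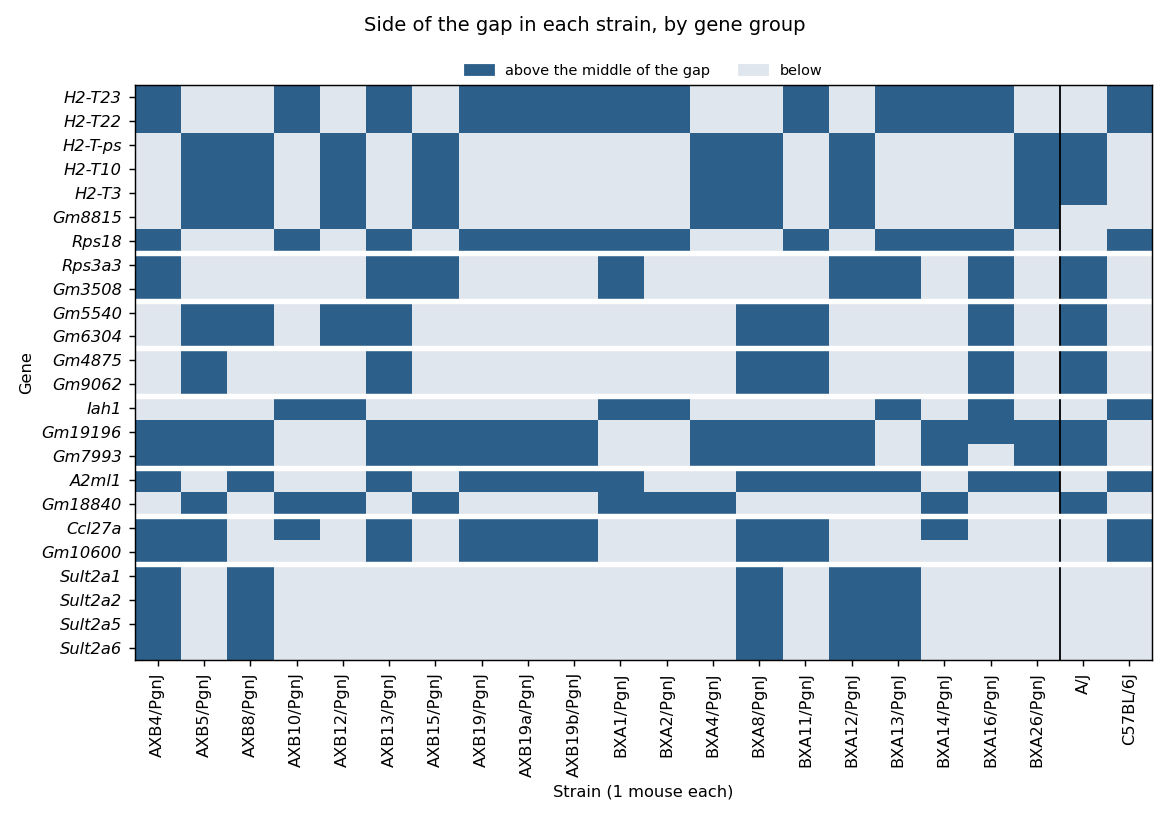
Side of the gap for groups of members (rows) in the 20 AXB/BXA strains, A/J and C57BL/6J (columns), dark above the middle of the gap and pale below it. In the top group H2-T23, H2-T22 and Rps18 are pale in the 8 strains in which H2-T10, H2-T3, H2-T-ps and Gm8815 are dark, and the pairs Gm5540 with Gm6304 and Gm4875 with Gm9062 match in all 20 strains.

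The pseudogenes were then set beside protein-coding genes that had a gap of at least 0.5 and opposite parents (155 genes, within 20 Mb). A gene with 19 or 20 strains on the same side was found near the pseudogene itself for 4 of 40 pseudogenes with opposite parents, and near its source for 6 of 38. Sources within 20 Mb of the pseudogene on the same chromosome were not compared. The 4 pseudogenes with a match at their own position (Gm18840, Gm19196, H2-T-ps and H2-T10) all had such a source, so they were left out next. Of the 30 with such genes near both places, 0 had a match at their own position and 4 at that of the source. The 0 follows from this exclusion, so these 2 counts cannot be set against each other. The identical Rpl35a-related copies count separately here. Protein-coding members had a match near their own position in 13 of 32. Gm7993 on chromosome 5 shared all 20 strains with Iah1, 3.77 Mb from its source Odc1 on chromosome 12. Gm4742 on chromosome 14 shared all 20 with Vcpkmt, 1.41 Mb from its source Psma3. Rps3a3 itself shared all 20 with Asic5, 4.14 Mb from Rps3a1 (chr3:86137940-86142702), as well as with the other Rps3a1-like pseudogenes Gm3508 (r 0.984) and Rps3a2 (r 0.974). Most pseudogenes had no such match at either place.

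Among protein-coding genes with opposite parents, several have immune functions. Ifi44l, an interferon-induced gene, was from 0 to 0.0674 TPM in 6 strains and from 2.50 to 10.2 TPM (median 4.397) in 14. A/J had 1.46 TPM, and C57BL/6J and all 56 BXD strains were at 0. Mndal, an interferon-inducible gene of the Ifi200 family, was from 0.478 to 2.10 TPM (median 1.05) in 9 strains and from 7.73 to 14.7 TPM (median 9.20) in 11. A/J had 0.872 TPM and C57BL/6J 20.6 TPM, which was above every AXB/BXA strain. Cd300ld, a receptor of myeloid cells, was from 0.317 to 0.616 TPM in 5 strains and from 2.90 to 8.36 TPM (median 4.06) in 15, with 0.222 TPM in A/J and 6.78 TPM in C57BL/6J.

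A second set of genes serves lipid, ester and drug metabolism. Ces1b, a carboxylesterase, was from 21.6 to 45.6 TPM (median 30.6) in 6 strains and from 168 to 276 TPM (median 241) in 14, with 310 TPM in A/J and 18.3 TPM in C57BL/6J. Eci3, an enoyl-CoA isomerase of fatty acid breakdown, was from 0.135 to 0.633 TPM in 5 strains and from 4.69 to 9.44 TPM (median 5.90) in 15, with 8.07 TPM in A/J and 0 in C57BL/6J. A/J was the high parent for both, and both C57BL/6J values lay below every AXB/BXA strain.

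Iah1, an esterase, was high on the C57BL/6J side, from 58.3 to 90.4 TPM (median 74.8) in 6 strains against 10.6 to 24.2 TPM (median 17.9) in 14, and was 56.5 TPM in C57BL/6J and 19.3 TPM in A/J. Cyp2c23, a cytochrome P450 that makes epoxides of arachidonic acid, was from 36.1 to 120 TPM (median 60.7) in 12 strains and from 7.80 to 17.01 TPM (median 9.57) in 8, with 51.6 TPM in C57BL/6J and 12.53 TPM in A/J. Ugt1a10, a glucuronosyltransferase, was from 4.32 to 8.99 TPM (median 7.58) in 9 strains and from 0.160 to 1.11 TPM (median 0.382) in 11, with 2.62 TPM in A/J and 0.451 TPM in C57BL/6J. Exons shared with other Ugt1a genes make the last level uncertain.

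Other members with opposite parents include Pebp1, a phosphatidylethanolamine-binding protein, at 60.3 to 79.6 TPM in 5 strains and 194 to 401 TPM in 15, with 205 TPM in A/J and 70.4 TPM in C57BL/6J. Rpl26, a ribosomal protein gene, was 83.9 to 133 TPM on the low side and 270 to 443 TPM on the high side, with 106 TPM in A/J and 310 TPM in C57BL/6J. Gm5096 was from 96.6 to 374 TPM (median 163) in 10 strains and from 4.201 to 24.96 TPM (median 9.34) in 10, with 88.1 TPM in A/J. The predicted genes AK157302 (3.03 to 6.85 TPM in 11 strains, 0 in 9) and 9130409I23Rik (25.9 to 47.3 TPM in 9, 1.64 to 8.69 TPM in 11) were also high on the A/J side.

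DBA/2J and the BXD strains gave a check that the rule had used only in part, through the exclusion of genes that split widely there. DBA/2J lay on the C57BL/6J side for 48 of the 83 genes with opposite parents, and for 29 of them all 56 BXD strains did so too. Of the 59 genes with both parents on 1 side, DBA/2J lay on that side as well for 44, but for 0 of them were all 56 BXD strains there. For the 35 genes with DBA/2J on the A/J side, 13 to 51 BXD strains (median 28) stood off the C57BL/6J side. In the BXH strains (parents C57BL/6J and C3H/HeJ), where both parents were on 1 side, 25.7% of values (37) were off that side for genes with opposite A/J and C57BL/6J, and 28.2% (53) for the other members. In the CXB strains (parents BALB/cByJ and C57BL/6J) these shares were 15.7% (16 values) and 27.2% (31 values). The 29 genes hold 9 protein-coding genes (among them 9130409I23Rik, Ifi44l, Rpl26, Cd300ld, Iah1, AK157302, H2-T23 and Gm5096) and 20 pseudogenes, and A/J was the high parent for 24. The pseudogenes include Rpl35a-ps2, Rpl35a-ps3, Rpl35a-ps4, Rpl35a-ps6 and Gm10243, which are 1 measurement but are counted separately here.

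For 28 of these 29 genes the AXB19/PgnJ substrains were on 1 side. All 3 C57BL/6J mice of the diet study stood on the C57BL/6J side for all 29 on 2% iron and for all 29 on 2% iron with cellulose. They did so for 22 on 500 ppm, 27 on 50 ppm and 26 on chow, and all 15 mice did so for 21. Each count in this paragraph takes the identical Rpl35a-related copies as separate genes, so they move a count together. On the other 3 diets, at least 1 C57BL/6J mouse was thus off that side for some of these genes. Of the other inbred libraries, MRL/MpJ was on the A/J side for 19 of the 29 genes, LG/J for 18, NZB/BlNJ for 16 and BALB/cByJ and BALB/cJ for 15 each. C57L/J was there for 4 and C57BLKS/J for 0.

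Some protein-coding members with both parents on 1 side came in clusters. The 4 neighbouring sulfotransferases of chromosome 7, which add sulfate to steroids and bile acids, were high in BXA8/PgnJ, BXA12/PgnJ, BXA13/PgnJ, AXB4/PgnJ and AXB8/PgnJ, with all 20 strains on the same side in each of the 6 pairs. Sult2a1 was from 11.03 to 374 TPM (median 29.1) in the 5 strains and from 0 to 4.16 TPM (median 0.133) in the 15. A/J had 1.90 TPM and C57BL/6J 0. Sult2a2 (25.8 to 135 TPM), Sult2a5 (8.80 to 37.96 TPM) and Sult2a6 (4.52 to 20.8 TPM) were high in the same 5 strains, and both parents were low for each. The 4 genes are close copies, so their levels are not independent measurements.

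Mup genes, which encode carrier proteins of pheromones made by the liver and excreted in urine, gave 7 members, 2 of them (Mup9 and Mup18) with opposite parents. Mup20, or darcin, was from 4.35 to 99.7 TPM (median 41.8) in 11 strains and from 226 to 3974 TPM (median 360) in 9, with 59.4 TPM in A/J and 68.4 TPM in C57BL/6J. Mup16 was from 0 to 2.195 TPM on its low side and from 10.2 to 447 TPM (median 41.7) on its high side, with 40.7 TPM in A/J and 7.98 TPM in C57BL/6J. Mup18 was from 0 to 0.00213 TPM in 6 strains and from 2.78 to 78.8 TPM (median 9.47) in 14, with 0 in A/J and 3.40 TPM in C57BL/6J. Pairs of the 7 shared 10 to 19 strains, so they did not split together. Mup genes are near-identical and their levels are uncertain for single genes.

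Tor1aip1, which encodes a nuclear membrane protein, and Stox2 and Phkg1, a subunit of phosphorylase kinase, split into nearly the same strains although they lie on different chromosomes. Tor1aip1 was from 33.7 to 1128 TPM (median 139) in 8 strains and from 2862 to 79571 TPM (median 22534) in 12, with 3274 TPM in A/J and 3701 TPM in C57BL/6J. Stox2 was 455 to 1471 TPM on its low side and 3295 to 20333 TPM on its high side, and Phkg1 1.45 to 44.5 TPM and 111 to 938 TPM. Tor1aip1 and Stox2 shared 18 strains, and each shared 19 with Phkg1. Both parents were on the high side for Tor1aip1 and Stox2.

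In the 3 C57BL/6J mice on 2% iron, Tor1aip1 was 163, 21942 and 32402 TPM, Stox2 1991, 18204 and 19613 TPM and Phkg1 36.2, 255.5 and 233 TPM. The first mouse was low for all 3 genes and the others high, within 1 strain and 1 diet. Tor1aip1 took 0.00774% to 4.05% of the counts of the AXB/BXA libraries. The circadian transcription factor Dbp, low in 7 strains (0.540 to 29.2 TPM) and high in 13 (64.4 to 144 TPM), was 1.93, 1.19 and 5.37 TPM in the same 3 mice, against 63.9 TPM in the C57BL/6J mouse of the panel. For these genes mice of 1 strain stood on both sides of the gap.

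Gm46542 had the second largest gap (3.67), with 0 TPM in 15 strains and both parents and 11.7 to 31.4 TPM in 5. The high strains had a median of only 9.41 counts. Gm6293 (gap 2.67) was 5.36 to 9.96 TPM in 5 strains with a median of 1 count. At this depth a strain at 0 cannot be told from one with a low level.

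Hba-a2, an adult alpha globin of red cells, was from 0 to 2.24 TPM in 6 strains and from 7.91 to 127 TPM (median 27.6) in 14, with 0 in A/J and 57.8 TPM in C57BL/6J. The summed level of 3 other erythroid markers (Hba-a1, Hbb-bs and Alas2) was 4.51 to 70.6 TPM in the 6 strains and 71.2 to 1160 TPM in the 14, without overlap. In whole liver, more red cells and more RNA per cell cannot be told apart. Marco, a scavenger receptor of Kupffer cells, the macrophages of the liver, was at most 4.08 TPM (median 3.00) in 5 strains and from 10.1 to 45.8 TPM (median 20.2) in 15. The other 4 Kupffer markers summed to 114 to 255 TPM (median 179) in the low strains and 140 to 398 TPM (median 176) in the high strains, which overlapped.

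The diet study asked which members differ between diets in C57BL/6J mice, independently of the split. Both comparisons below use the same 3 mice on 2% iron and come from 1 fit of all diet groups with edgeR's quasi-likelihood test. Of the members, 57 passed the filter on low counts and were tested, and the other 85 did not. The 57 count the identical Rpl35a-related copies separately and include near-identical Mup genes, so they are not independent measurements. Mup genes made 6 of the lower calls in each comparison. Against 50 ppm, 15 of the 57 were called (26.3%; 6 higher and 9 lower with 2% iron). Of all 13560 genes tested, 15.7% were called, 8.52% higher and 7.17% lower. Against chow, 21 of the 57 were called (36.8%; 5 higher and 16 lower), beside 22.8% of all genes, 11.9% higher and 10.9% lower. Without Gm8116, which was at 0 in every mouse on 2% iron, 20 of 56 were called, 15 of them lower. The median log2 difference of the members was -0.23 and -0.05, beside 0.01 and 0.01 for all genes. Of the called genes, 12 were called in both comparisons, in the same direction in each. Where values are given below, they are CPM (counts scaled to a library of 1000000) of the 3 mice in each group.

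Of the 7 Mup members, 6 fell on 2% iron in both comparisons. Mup1 was 3.73, 5.16 and 4.69 CPM on 2% iron, 670, 95.99 and 77.7 CPM on 50 ppm and 570, 609 and 339 CPM on chow. All 2% mice lay far below the others, with log2 differences of -5.96 (SE 0.81, edgeR adjusted p = 6.66e-04) and -6.80 (SE 0.84, adjusted p = 1.78e-04). Mup20 was 327.2, 720 and 732.6 CPM on 2% iron, 11253, 4825 and 5145 CPM on 50 ppm and 3527, 4498 and 4788 CPM on chow, and fell by 3.58 (SE 0.40, edgeR adjusted p = 1.94e-04) and 2.85 (SE 0.39, adjusted p = 2.71e-04). Mup9, Mup13, Mup16 and Mup-ps16 were also lower in both. The log2 differences of Mup18 were -2.37 (adjusted p = 0.0951) and -2.17 (adjusted p = 0.103), which did not pass. The size of the Mup1 difference from 50 ppm depended on replicate 1 of that group (-4.26 without it), and that of Mup9 (-5.79) was -6.80 when mouse 3 on 2% iron was dropped and -5.11 when mouse 1 on 50 ppm was.

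Cyp2c23 fell as well, from 243, 123 and 157 CPM on 50 ppm and 282, 287 and 280 CPM on chow to 77.6, 81.1 and 86.4 CPM on 2% iron. Its log2 differences were -1.10 (SE 0.22, edgeR adjusted p = 0.00585) and -1.79 (SE 0.23, adjusted p = 2.05e-04). The pseudogene Adh6-ps1 was lower by log2 differences of -1.39 and -1.32 (adjusted p = 0.00690 and 0.00581). No mouse on 2% iron overlapped those on 50 ppm or chow for Cyp2c23.

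Marco and Hba-a2 were higher on 2% iron. Marco was 37.3, 37.6 and 25.3 CPM on 2% iron, 2.42, 2.03 and 5.97 CPM on 50 ppm and 3.57, 3.54 and 4.07 CPM on chow, with log2 differences of 3.23 (SE 0.63, edgeR adjusted p = 0.00469; 3.90 without replicate 3 of the 50 ppm group) and 3.15 (SE 0.62, adjusted p = 0.00288). The other 4 Kupffer markers summed to 211.1 to 243.7 TPM on 2% iron, 48.6 to 90.6 TPM on 50 ppm and 55.2 to 69.8 TPM on chow, and all 4 were higher in every 2% mouse. Their part in the result was not tested. Hba-a2 was 75.2, 68.5 and 49.4 CPM on 2% iron, 4.65, 7.06 and 2.73 CPM on 50 ppm and 1.22, 5.03 and 2.98 CPM on chow, with log2 differences of 3.75 (SE 0.47, edgeR adjusted p = 4.89e-04) and 4.38 (SE 0.49, adjusted p = 1.03e-04). The 3 other erythroid markers summed to 440 to 739 TPM, 64.3 to 98.9 TPM and 63.1 to 88.0 TPM in these groups, with 2 of the 3 higher in every 2% mouse, and their part in the result was not tested either.

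Cd300ld was 13.8, 11.6 and 11.6 CPM on 2% iron and 2.42 to 6.55 CPM in the mice on 50 ppm or chow. Its log2 differences were 1.51 (SE 0.33, edgeR adjusted p = 0.00795) and 1.46 (SE 0.33, adjusted p = 0.00591). The 4 Kupffer markers summed above were also higher on 2% iron, and their part in the Cd300ld result was not tested. Mndal was 19.1, 20.3 and 20.3 CPM on 2% iron and 7.05 to 10.7 CPM in the mice on 50 ppm or chow. Its log2 differences were 0.95 (SE 0.14, edgeR adjusted p = 0.00119) and 1.40 (SE 0.15, adjusted p = 7.61e-05). Neither gene overlapped between 2% iron and the mice on 50 ppm or chow. The 2 genes were also among those with the lower level in A/J.

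9130409I23Rik was 7.54, 5.51 and 4.61 CPM on 2% iron, 7.17, 7.64 and 5.47 CPM on 50 ppm and 21.5, 31.6 and 24.1 CPM on chow, a log2 difference of -2.12 from chow (SE 0.22, edgeR adjusted p = 7.61e-05) and -0.19 from 50 ppm (SE 0.24, adjusted p = 0.636). The mice on 500 ppm had 6.22 CPM ± 0.99 (SD, n = 3), so the chow mice stood apart from both lower iron doses and from 2% iron. Whether the response differed between the 50 ppm and chow comparisons was not tested. Pebp1 was called against chow too (log2 difference -0.48, edgeR adjusted p = 0.00668).

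Another 8 calls were lost under other settings. Against 50 ppm, A2ml1, an alpha-2-macroglobulin-like protease inhibitor, was higher by 0.95 (edgeR adjusted p = 0.0352; 0.0716 to 0.116 when any mouse but replicate 2 of the 2% group was left out). H2-T22 was higher by 0.60 (adjusted p = 0.0307; 0.0507 to 0.0998 when any of the 6 mice was left out). The chemokine gene Ccl27a differed by -1.26 (adjusted p = 0.0130; 0.0507 when mouse 1 on 2% iron was dropped and 0.0560 when mouse 1 on 50 ppm was). Limma gave Ccl27a an adjusted p of 0.0547 on log2(TPM + 1) and 0.0597 on log2(TPM + 0.1).

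Against chow, H2-T23 was 193.4, 206.8 and 201.99 CPM on 2% iron and 127, 134 and 181 CPM on chow, a log2 difference of 0.44 (edgeR adjusted p = 0.0375; 0.0656 to 0.145 when any mouse but replicate 3 of the chow group was left out). Gm5096 differed by -1.56 (adjusted p = 0.0402; 0.101 and 0.141 without replicates 2 and 3 of the 2% group, 0.0507 and 0.184 without replicates 1 and 2 of the chow group). Limma gave Gm5096 an adjusted p of 0.084 on log2(TPM + 1) and 0.0857 on log2(TPM + 0.1). Iah1 differed by -0.40 (adjusted p = 0.0121; 0.0540 and 0.0563 without replicate 1 of the 2% or of the chow group). By limma its adjusted p was 0.255 on log2(TPM + 1) and 0.253 on log2(TPM + 0.1). These 3 genes are among the 29 with all BXD strains on the C57BL/6J side.

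Ces1b differed from chow by -0.92 (edgeR adjusted p = 0.00927; 0.05002 without replicate 2 of the chow group), and Gm10600 by -0.83 (adjusted p = 0.00924; 0.0658 by limma on log2(TPM + 1)). For Ces1b, limma gave an adjusted p of 0.0501 on log2(TPM + 1) and 0.0514 on log2(TPM + 0.1). Gm8116 was at 0 in every mouse on 2% iron and 50 ppm and 1.13, 1.21 and 2.91 CPM on chow. It passed the filter on low counts only through groups other than 2% iron, so its fold and p are not given.

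The direction of the cross was the last comparison, AXB strains against BXA strains. In AXB strains the mother of the cross was A/J and in BXA strains C57BL/6J. None of 12942 genes tested was called (0%) by edgeR, and 404 had an unadjusted p under 0.05. DESeq2 called 0, with 418 under 0.05. The members were chosen for their wide spread among these same libraries, so the comparison is not read for them.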

How the data were processed

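Liver RNA was quantified by the authors into expected counts and TPM per gene, as 2 deposited tables for the strain panel and 2 for the diet study. The submitters' processing notes name kallisto 0.46 and mm10, while the strand used in counting is not given in the sources used here. The deposited expected counts were rounded to whole numbers for edgeR, although the design had assumed whole counts. The deposited TPM gave the sides, gaps and levels. Symbols and positions come from GENCODE M21 on GRCm38, which matched 35691 of 35711 panel identifiers. The members, gene lists and tests were chosen with earlier results of these data known.

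Tests were two-sided and used edgeR 4.0.16 (quasi-likelihood, TMM factors, filterByExpr) in R 4.3.3 over all genes, with Benjamini-Hochberg adjustment and calls at an adjusted p under 0.05. All 5 diet groups shared 1 fit. Simulated data with known changes were used to test the script. The p-values measure the spread between single mice. Sources of pseudogenes were found with blastn 2.17.0 (at least 80% identity over at least 50% of the transcript). Alternatives were DESeq2 1.42.0, limma 3.58.1 on log2(TPM + 1) and log2(TPM + 0.1), other size factors, no filter, other gap rules and each diet mouse left out. Python 3.11.15 with numpy 2.4.6 and pandas 2.3.3 was used.

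Genes were named by a rule: the 12 protein-coding members with the largest gap and a high-side median of at least 2 TPM, members called in a test, neighbours within 5 Mb, the 5 largest gaps with parents on 1 side, the 3 largest among pseudogenes, and the 3 on either side of the threshold. Not every gene it covers is named, and the other genes were chosen after their values were seen. Some items are not reported here.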

Additional observations from a re-analysis of the deposited data

Results flagged for a closer look

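A single strain stood far from the rest of its family for 3 of 116 sets of values tested, by Dixon's criterion. The sets are the named members in the 10 AXB or the 10 BXA strains. Values from 1 normal distribution meet the criterion in about 1 of 20 sets. These genes were chosen for a gap, so that rate does not apply to them. Ywhaq-ps3 was 2.64 TPM in AXB13/PgnJ and at most 1.42e-06 TPM in the other AXB strains. Gm2805 was 6.35 TPM in AXB8/PgnJ, with the next AXB strain at 0.338 TPM. Gm46542 was 20.9 TPM in BXA13/PgnJ and 0 in the other BXA strains. These values are among those that chose the genes, so they describe the split and are no test of it. All 3 are single mice without a replicate.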

How the results depend on the processing

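The number of members depended on the scale and the threshold. It was 850 with log2(TPM + 0.1) (81 shared with the set described), 284 with log2(TPM + 0.5) (122 shared), 50 with a gap of at least 1.5, and 226 when genes also split among BXD strains were kept. It stayed within 1.5 times with CPM (66 shared), 4 strains per side (181), 6 strains per side (106), AXB19a/PgnJ and AXB19b/PgnJ left out (145), TPM rescaled without Tor1aip1 and Stox2 (148) and BXD65/RwwJ left out (144), the last 2 chosen after seeing the data. Opposite parents were found for 57 of the members when the edges of the gap were required, 75 with log2(TPM + 0.1) and 80 with the median of the diet mice, beside 83. Genes called for 2% iron against 50 ppm numbered 2127 (1155 higher, 972 lower), 1208 by limma on log2(TPM + 1) (804 and 404), 1161 on log2(TPM + 0.1) (763 and 398) and 1003 to 1640 with 1 mouse left out, the fewest without replicate 1 of the 50 ppm group. Against chow they numbered 3087 (1607 and 1480), 1945 (1381 and 564), 1987 (1425 and 562) and 2151 to 2627. The median of all genes against chow was 0.10 and 0.14 on the 2 limma scales, beside 0.01. Called members ran from 12 to 22 against 50 ppm and from 18 to 24 against chow over all alternatives. No direction of a called member reversed. AXB against BXA gave 0 calls under every alternative run. No paired analysis was possible because the replicate numbers only follow the order of deposit and the columns carry none. Single mice per strain, the low counts of many pseudogenes and near-identical copies limit these values.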
